A study of Arabidopsis thaliana with 4 samples.

Results

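CYCLING DOF FACTOR (CDF) and CONSTANS-like (COL) transcripts were compared between Arabidopsis seedlings given glutamate for 0.5 h and seedlings at 0 h. The 9 genes were taken by identifier: CDF1 (AT5G62430), CDF2 (AT5G39660), CDF3 (AT3G47500), CDF4 (AT2G34140), CDF5 (AT1G69570), COL1 (AT5G15850), COL2 (AT3G02380), COL5 (AT5G57660) and COL9 (AT3G07650). All 9 were found among the 33602 genes of the deposited table. The glutamate group held 2 libraries from seedlings kept for 0.5 h in nitrogen-free medium with 2.5 mM glutamate. The control group held 2 libraries at 0 h, from the same nitrogen-free medium without glutamate. Every library came from whole wild-type seedlings of the Col-0 ecotype, 14 days old, grown hydroponically at 22 °C in 16 h of light and 8 h of dark, and all carry 1 batch label.

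CDF proteins are DOF-type zinc finger transcription factors at the output of the circadian clock. They are known to bind the promoters of CONSTANS (CO) and FLOWERING LOCUS T (FT) in the morning and to hold photoperiodic flowering back until the F-box protein FKF1, acting with GIGANTEA (GI), marks them for breakdown in the afternoon. Morning MYB factors of the clock are known to activate CDF genes, and the PRR repressors to switch them off. COL proteins share the B-box zinc fingers and the CCT domain of CO, and several of their genes cycle over the day.

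Each group had 2 libraries, and the labels do not say whether they came from separate cultures. The p-values therefore reflect only how far these libraries differ, possibly for technical reasons. The labels give neither the hour of harvest nor any mock transfer to glutamate-free medium of the same duration. The move, the elapsed clock time and glutamate therefore cannot be told apart in any difference given here. The glutamate libraries held 21776595 and 24599752 recovered reads and the control libraries 27674435 and 23669908. Levels are given in RPKM (reads per kilobase of gene and scaled to library size) as the authors deposited them. Changes were computed from log2(RPKM + 1), a scale that shrinks differences between low values.

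All 9 genes passed the test across all genes (limma, adjusted p under 0.05), against 30.8% of the 17750 genes tested. The 9 genes were chosen with earlier results of these data known, so this count is no independent test of the family. Of these 9, 2 were higher and 7 lower in the glutamate libraries, where 16.3% of all tested genes were higher and 14.6% lower. CDF1 and CDF4 rose. CDF2, CDF3, CDF5 and all 4 COL genes fell. The glutamate and control libraries did not overlap for any of the 9, which also held for 66.2% of tested genes. The median log2 change was -1.01 over the 9 genes and -0.06 over all tested genes. In whole seedlings, fewer cells of a type and less RNA per cell cannot be told apart.

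**Figure D1:**
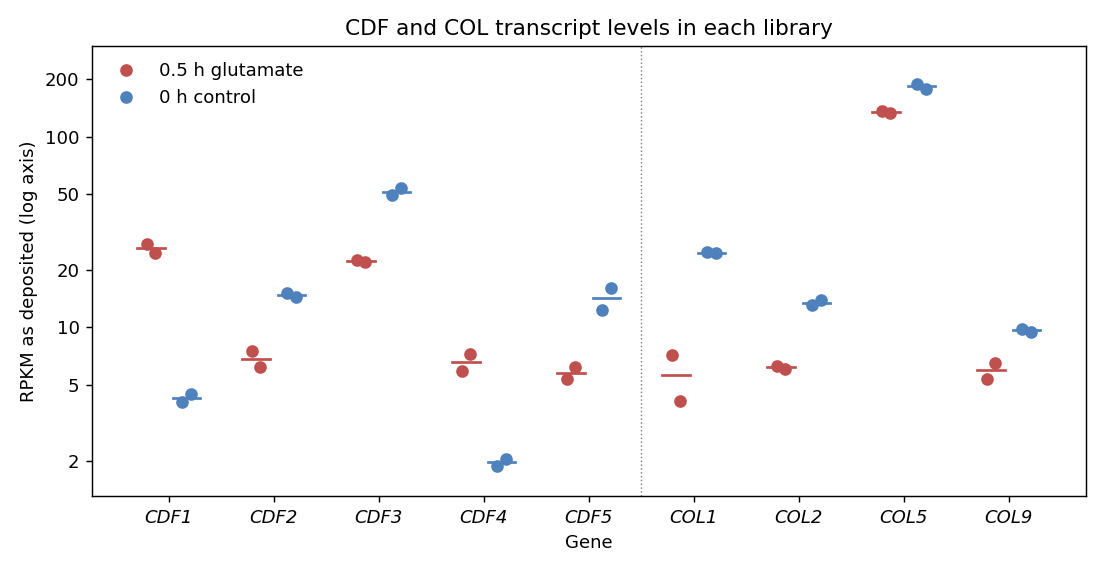
Level of each gene in RPKM (log axis), with 1 point per library and a bar at the group mean, for 0.5 h of glutamate (left of each pair) and 0 h (right). CDF1 and CDF4 lie higher in both glutamate libraries and the other 7 genes lower, with COL5 far above the rest.

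The 9 genes lie on chromosomes 1, 2, 3 and 5. In TAIR10.1, CDF4 has 1 exon, CDF2 has 2 or 3 depending on the transcript, COL9 has 5 or 6 and each of the other 6 genes has 2. To compare the windows in front of the genes, 250 bases before and 50 bases after each annotated start were read from TAIR10.1 and searched on both strands. The motifs were the evening element (AAAATATCT), the CCA1-binding site (AAAAATCT), the G-box (CACGTG), the W-box (TTGACC or TTGACT), the rapid stress response element (CGCGTT) and the CAMTA-type CGCG box (ACGCGT). The windows of the 2 genes that rose are shown with those of CDF2 and COL2, which fell. They are CDF1 (chr5:25071062-25071361, minus strand), CDF4 (chr2:14414739-14415038, minus strand), CDF2 (chr5:15878448-15878747, plus strand) and COL2 (chr3:489418-489717, minus strand), each written 5′ to 3′ along the gene with motif matches in capitals (RefSeq, TAIR10.1).
CDF1: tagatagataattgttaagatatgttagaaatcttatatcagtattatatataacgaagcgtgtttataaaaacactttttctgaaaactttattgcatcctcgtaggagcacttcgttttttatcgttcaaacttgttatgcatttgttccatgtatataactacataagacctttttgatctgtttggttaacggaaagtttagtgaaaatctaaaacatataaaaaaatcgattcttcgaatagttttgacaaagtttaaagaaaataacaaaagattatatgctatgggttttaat
CDF4: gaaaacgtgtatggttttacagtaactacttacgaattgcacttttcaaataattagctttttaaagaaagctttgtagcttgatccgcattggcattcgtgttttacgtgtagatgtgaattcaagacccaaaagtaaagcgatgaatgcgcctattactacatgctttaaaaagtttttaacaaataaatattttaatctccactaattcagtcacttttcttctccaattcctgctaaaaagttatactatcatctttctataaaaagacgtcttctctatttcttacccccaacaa
CDF2: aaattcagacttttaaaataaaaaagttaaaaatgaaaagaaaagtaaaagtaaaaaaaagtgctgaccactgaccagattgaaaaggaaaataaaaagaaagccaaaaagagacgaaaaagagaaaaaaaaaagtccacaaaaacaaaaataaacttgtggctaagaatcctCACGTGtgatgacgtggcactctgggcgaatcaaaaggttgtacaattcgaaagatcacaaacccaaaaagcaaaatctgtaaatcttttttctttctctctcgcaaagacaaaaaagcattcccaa
COL2: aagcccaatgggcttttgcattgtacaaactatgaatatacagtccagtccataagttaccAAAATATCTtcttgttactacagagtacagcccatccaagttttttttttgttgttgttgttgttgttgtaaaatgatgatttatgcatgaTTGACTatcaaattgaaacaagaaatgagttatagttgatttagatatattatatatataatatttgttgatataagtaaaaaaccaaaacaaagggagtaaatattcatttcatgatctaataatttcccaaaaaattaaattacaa
No motif of the set was in the windows of CDF1 and CDF4. CDF2 held a G-box that begins 77 bases before the start, a motif found in 7.68% of 27443 protein-coding windows. COL2 held an evening element 189 bases before the start, found in 2.82% of windows, and the TTGACT form of the W-box, found in 21.8%. The CDF5 window held a CCA1-binding site (7.88% of windows) and the COL1 window the TTGACC form of the W-box (14.2%). CDF3, COL5 and COL9, which also fell, held none. A match describes the letters in the window and is no evidence of binding.

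Among the CDF genes, CDF1 moved against CDF2, CDF3 and CDF5, while CDF4 also rose. CDF1 had 27.5 and 24.6 RPKM in the glutamate libraries, against 4.07 and 4.47 RPKM in the control libraries. The nearest libraries of the 2 groups were 20.1 RPKM apart, while libraries of one group differed by at most 2.89 RPKM. Its mean was 6.09 times the control mean, and the log2 change was 2.36 ± 0.13 (SE, limma, adjusted p = 0.000179). Of all tested genes, 96.7% had a lower log2 change. Its counts were 677 and 703 reads in the glutamate libraries and 146 and 140 in the control libraries.

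CDF3, the most abundant CDF transcript at 0 h, had 22.5 and 22.0 RPKM in the glutamate libraries, against 49.6 and 53.7 RPKM in the control libraries. Both glutamate libraries were below both control libraries, at 43.0% of the control mean, and the log2 change was -1.18 ± 0.12 (adjusted p = 0.00138). CDF2 had 7.53 and 6.19 RPKM in the glutamate libraries and 15.1 and 14.4 RPKM in the control libraries. CDF2 was at 46.5% of its control mean, with a log2 change of -1.01 ± 0.14 (adjusted p = 0.00443). CDF2 and CDF3 act redundantly with CDF1 and CDF5 in holding back CO. Of all tested genes, 4.85% had a lower log2 change than CDF2 and 3.40% a lower one than CDF3.

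CDF5 had 5.38 and 6.21 RPKM in the glutamate libraries, against 12.3 and 16.1 RPKM in the control libraries. The groups stayed apart by 6.13 RPKM, although the control libraries differed by 3.71 RPKM. Its log2 change was -1.15 ± 0.17 (adjusted p = 0.00517). In the TAIR10.1 annotation CDF5 spans chr1:26161528-26163715 on the minus strand and overlaps the long noncoding RNA AT1G69572 on the plus strand over 1241 bases. The deposited fraction maxMultiRatio, which has no definition in the header, was 0.912 for CDF5. It was read as the share of reads shared with other loci, here and for every fraction given below. AT1G69572 was listed with 0 reads in all 4 libraries. No source used here states that counting used strand, so the reads listed for CDF5 may include those of its antisense partner, and its level is uncertain.

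CDF4, known from the root tip, where it promotes the differentiation of columella stem cells, was the least abundant of the 9 genes at 0 h. It had 5.90 and 7.29 RPKM in the glutamate libraries, against 1.88 and 2.03 RPKM in the control libraries. Both glutamate libraries were above both control libraries, and the mean was 3.38 times the control mean. The log2 change was 1.36 ± 0.15 (adjusted p = 0.00204). These levels rest on 117 and 168 reads in the glutamate libraries and 54 and 51 in the control libraries.

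**Figure D2:**
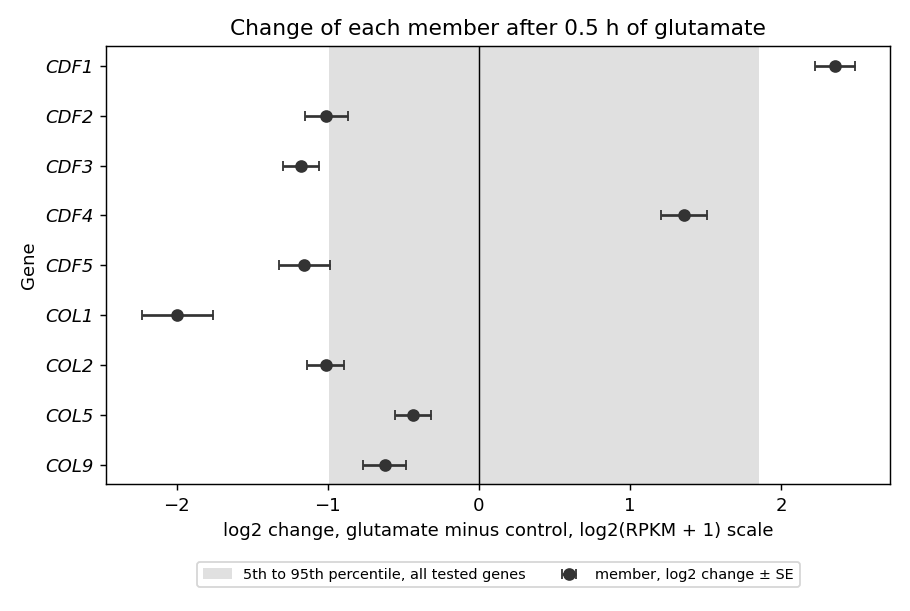
Log2 change of each gene (glutamate minus control, log2(RPKM + 1) scale) with its SE from limma. The grey band spans the 5th to 95th percentile of all tested genes, -0.99 to 1.85. CDF1 lies above the band, CDF4 lies inside it on the positive side, and COL1 lies farthest below it.

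The make-up of the CDF transcript pool differed between the groups. The 5 CDF genes summed to 68.7 and 66.2 RPKM in the glutamate libraries and to 83.0 and 90.6 RPKM in the control libraries. CDF1 made up 39.9% and 37.1% of that sum in the glutamate libraries, against 4.91% and 4.93% in the control libraries. CDF3 made up 32.7% and 33.2% in the glutamate libraries, against 59.7% and 59.2% in the control libraries. CDF4 supplied 8.58% and 11.0% of the sum in the glutamate libraries and 2.26% and 2.24% in the control libraries. CDF5, whose level is uncertain, held 7.82% and 9.38% in the glutamate libraries and 14.9% and 17.7% in the control libraries. All shares of the sum carry that uncertainty. The ratio of CDF1 to CDF3 within a library, which a common scaling factor for a library cannot change, was 1.22 and 1.12 in the glutamate libraries and 0.0822 and 0.0833 in the control libraries. With 2 libraries per group an exact two-sided permutation test cannot give a p under 0.333, so these shares and ratios are given without a test.

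**Figure D3:**
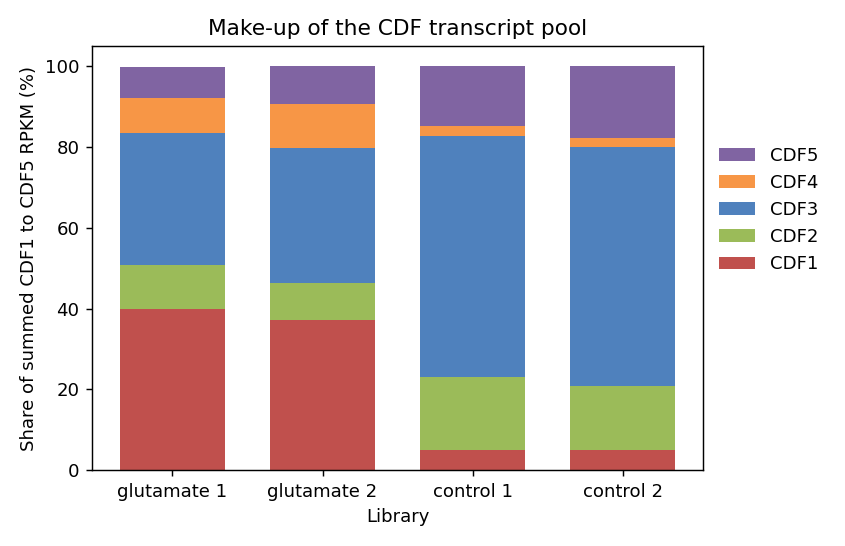
Share of the summed RPKM of CDF1 to CDF5 held by each gene (%), with 1 bar per library, the glutamate libraries on the left. CDF1 is the largest share in both glutamate libraries and CDF3 in both control libraries. The sum includes CDF5, whose level is uncertain.

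The 4 COL genes were lower in the glutamate libraries, by unequal amounts. COL1, whose overexpression is known to shorten the circadian period, had 7.16 and 4.11 RPKM in the glutamate libraries, against 24.8 and 24.6 RPKM in the control libraries. The glutamate libraries differed by 3.05 RPKM but stayed 17.5 RPKM below the nearer control library. At 22.8% of the control mean and a log2 change of -1.99 ± 0.24 (adjusted p = 0.00238), COL1 fell farthest of the 9, and 0.625% of tested genes had a lower change. COL1 spans chr5:5176091-5177897 on the minus strand and lies wholly within the long noncoding RNA gene AT5G15845 on the plus strand, and a fraction of 0.944 of its reads is marked as shared. AT5G15845 was listed at 0.742 and 2.16 RPKM in the glutamate libraries and 1.70 and 2.45 RPKM in the control libraries and did not pass (adjusted p = 0.415). The split of reads between COL1 and AT5G15845 is uncertain.

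COL2, the closest relative of COL1 in the set, had 6.29 and 6.05 RPKM in the glutamate libraries, against 13.1 and 13.9 RPKM in the control libraries. No read of COL2 is marked as shared, although TAIR10.1 places a gene on the other strand across each of its ends, AT3G02370 and AT3G02390, neither of which passed (adjusted p = 0.64 and 0.883). Libraries of one group differed by at most 0.828 RPKM, and the log2 change was -1.01 ± 0.12 (adjusted p = 0.00262). COL1 exceeded COL2 in both control libraries, at 1.90 and 1.77 times its level. In the glutamate libraries the ratio was 1.14 and 0.679, so the order of the 2 genes differed between libraries of one group.

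COL9, known to delay flowering by lowering CO and FT, had 5.37 and 6.54 RPKM in the glutamate libraries, against 9.85 and 9.48 RPKM in the control libraries. The groups were 2.94 RPKM apart and the log2 change was -0.62 ± 0.14 (adjusted p = 0.0241). COL5, which is known to promote flowering in short days when overexpressed, was the most abundant of the 9 genes in every library. It had 136 and 134 RPKM in the glutamate libraries, against 190 and 178 RPKM in the control libraries, which is 73.6% of the control mean. Its log2 change of -0.44 ± 0.12 passed narrowly (adjusted p = 0.042). The COL5 call was lost without any 1 of the 4 libraries (adjusted p = 0.118 to 0.204). The COL9 call was lost without glutamate replicate 1 (0.134) or control replicate 1 (0.0626). With either of those libraries left out, COL1 and COL2 were the COL genes called.

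The order of the 9 levels differed between the groups. In the glutamate libraries the order of group means was COL5, CDF1, CDF3, CDF2, CDF4, COL2, COL9, CDF5 and COL1. The 6 genes from CDF2 down had means between 5.63 and 6.86 RPKM, and each overlapped its neighbour. In the control libraries the order was COL5, CDF3, COL1, CDF2, CDF5, COL2, COL9, CDF1 and CDF4. There CDF2, CDF5 and COL2 overlapped their neighbours and the other steps exceeded the spread between libraries. The mean of CDF1 ranked 2 in the glutamate group and 8 in the control group.

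Genes with the pattern nearest to that of CDF1 were found by the Euclidean distance of mean-centred log2(RPKM + 1) values over the 4 libraries. They were YLS9 (AT2G35980), CDI (AT1G64980) and the calcium-dependent protein kinase gene CPK1 (AT5G04870), at distances of 0.0307, 0.0682 and 0.0714. YLS9 had 36.6 and 32.4 RPKM in the glutamate libraries, against 5.72 and 6.36 RPKM in the control libraries. Nearest to COL1 were AT3G11110, CYP71B11 (AT5G25120) and AT1G53890, at distances of 0.146, 0.185 and 0.223. AT3G11110 had only 22 and 14 reads in the glutamate libraries, and a fraction of 1.0 of the reads of AT1G53890 is marked as shared. With 17750 genes ranked over 4 libraries, some near patterns are bound to occur. CYP71B11, a cytochrome P450 gene, had 6.91 and 3.76 RPKM in the glutamate libraries, against 24.4 and 20.4 RPKM in the control libraries.

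Partners that remove CDF proteins were lower or did not pass. Of 4 genes of this group 2 were lower. ZTL (AT5G57360), a blue-light F-box protein of the clock, had 15.5 and 16.6 RPKM in the glutamate libraries, against 32.9 and 33.9 RPKM in the control libraries, a log2 change of -1.01 ± 0.12 (adjusted p = 0.00239). FKF1 (AT1G68050) had 23.5 and 28.0 RPKM in the glutamate libraries, against 43.4 and 37.7 RPKM in the control libraries (adjusted p = 0.0259). The FKF1 call was lost without glutamate replicate 1 (adjusted p = 0.113) or control replicate 1 (0.0845), and without the filter on low values (0.0863). GI (AT1G22770) had 28.5 and 27.2 RPKM in the glutamate libraries and 31.9 and 30.0 RPKM in the control libraries (adjusted p = 0.405). LKP2 (AT2G18915) did not pass either (log2 change -0.40, adjusted p = 0.0742), and a fraction of 0.168 of its reads is shared. LKP2 was called lower with equal library totals (log2 change -0.58, adjusted p = 0.019) and in a fit with the replicate number as a block (the replicate block, adjusted p = 0.00629), and 3 of the 4 genes were then lower.

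The targets CO and FT were near the limit of detection. CO (AT5G15840) had 8 and 14 reads in the glutamate libraries and 16 and 15 reads in the control libraries. FT (AT1G65480) had 4 and 3 reads in the glutamate libraries and 3 and 5 in the control libraries. Both lay below the minimum mean of 1 RPKM over all libraries and were left out of the test. The glutamate and control libraries overlapped for both genes, and a small difference in either was not detectable at this depth. Of 13 genes of the photoperiod flowering list 8 were tested, of which 1 was higher and 4 lower (median log2 change -0.48), and the higher call was lost without glutamate replicate 2, with quantile normalization or without the filter on low values. SPA1 (AT2G46340), a partner of the ubiquitin ligase COP1 that destabilizes CO protein, had 12.7 and 13.1 RPKM in the glutamate libraries, against 26.6 and 28.8 RPKM in the control libraries. FD (AT4G35900), the bZIP partner of FT, fell by 0.97 on the log2 scale (adjusted p = 0.00524). The floral repressor gene SVP (AT2G22540) fell by 0.93 (adjusted p = 0.0069). The higher gene of the list was TEM2 (AT1G68840), at 542 and 584 RPKM in the glutamate libraries and 345 and 344 RPKM in the control libraries (adjusted p = 0.00994).

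Relatives of the COL genes were mostly lower too. Of 12 other CONSTANS-like genes 10 were tested, and 1 was higher and 7 lower, with a median log2 change of -0.996. The higher gene was COL3 (AT2G24790), at 184 and 201 RPKM in the glutamate libraries and 125 and 128 RPKM in the control libraries (adjusted p = 0.0163). The single higher call was lost without glutamate replicate 2, control replicate 1 or control replicate 2, and with equal library totals or quantile normalization. BBX14 (AT1G68520) had 12.9 and 11.9 RPKM in the glutamate libraries, against 54.9 and 47.8 RPKM in the control libraries, a log2 change of -1.96 ± 0.13 (adjusted p = 0.000349). BBX16 (AT1G73870, also COL7) fell by 1.69 (adjusted p = 0.000665) and BBX17 (AT1G49130) by 1.35 (adjusted p = 0.00531). Of 8 B-box genes without a CCT domain 7 were tested, and 1 was higher and 6 lower, with a median of -1.20. BBX25 (AT2G31380) and BBX22 (AT1G78600), light-signalling factors, fell by 1.74 and 1.43. BBX20 (AT4G39070), a factor of brassinosteroid and light responses, had 37.8 and 59.7 RPKM in the glutamate libraries, against 7.11 and 10.5 RPKM in the control libraries (log2 change 2.33 ± 0.27, adjusted p = 0.00231).

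DOF genes outside the CDF set that passed the test were higher. Of 9 listed, 8 were tested, 5 were higher and 0 lower in limma, with a median log2 change of 0.67. None was lower at an unadjusted p under 0.05 or with voom weights, but 1 was called lower without control replicate 1, and also with the replicate block. The 5 higher calls became 3 with equal library totals, 2 with a minimum mean of 5 RPKM and 1 without the filter on low values. DAG2 (AT2G46590), a regulator of seed germination, had 5.12 and 6.10 RPKM in the glutamate libraries, against 2.11 and 2.06 RPKM in the control libraries (adjusted p = 0.0037). OBP2 (AT1G07640), a regulator of glucosinolate synthesis, and OBP3 (AT3G55370) rose by 1.03 and 1.00 on the log2 scale (adjusted p = 0.0141 and 0.00607).

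Core clock genes, which include the known regulators of CDF genes, were mixed: 3 of 17 were higher and 6 lower, with a median of -0.38. PRR5 (AT5G24470), a repressor known to bind CDF promoters, had 19.1 and 21.9 RPKM in the glutamate libraries, against 91.4 and 87.8 RPKM in the control libraries (log2 change -2.08 ± 0.13, adjusted p = 0.000256). The PRR genes PRR9 (AT2G46790), PRR7 (AT5G02810) and PRR3 (AT5G60100) did not pass (adjusted p = 0.122, 0.359 and 0.439). TOC1 (AT5G61380), of the same PRR family, was higher (log2 change 1.14 ± 0.14, adjusted p = 0.00281). The morning MYB genes CCA1 (AT2G46830) and LHY (AT1G01060) were lower (log2 change -1.17 and -0.785, adjusted p = 0.00153 and 0.012). Any effect of these regulators on the CDF genes was not tested. RVE4 (AT5G02840), a MYB factor of the clock, had 41.7 and 49.4 RPKM in the glutamate libraries, against 93.7 and 119 RPKM in the control libraries. BOA (AT5G59570), a GARP factor related to LUX, had 12.0 and 15.4 RPKM in the glutamate libraries, against 2.55 and 2.53 RPKM in the control libraries (log2 change 2.04 ± 0.16, adjusted p = 0.000544).

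**Figure D4:**
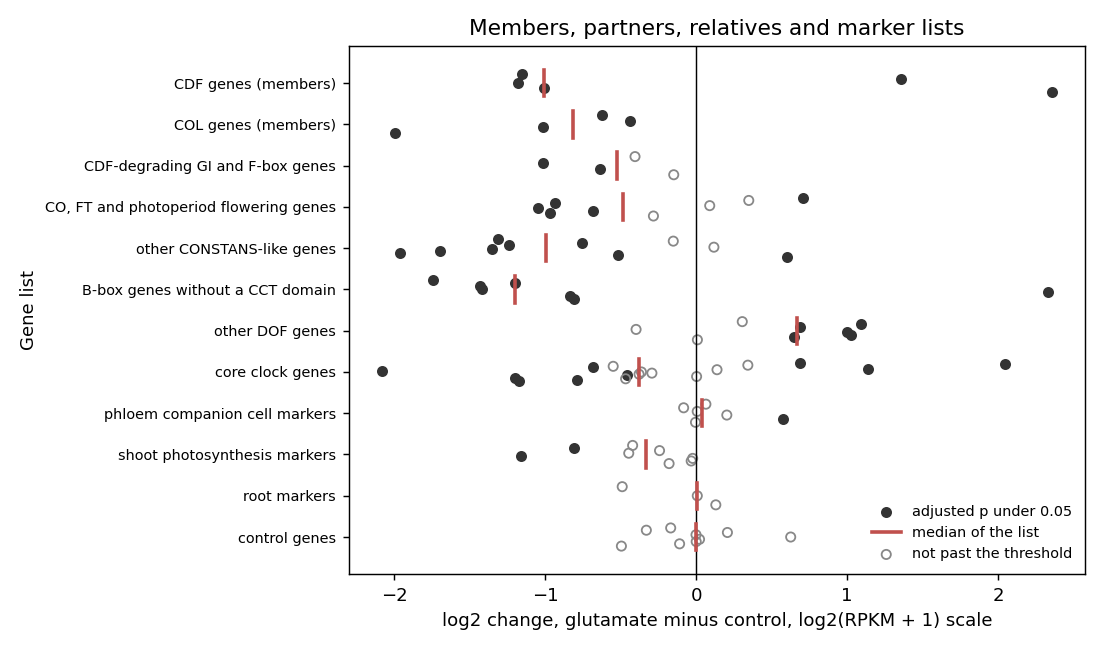
Log2 change (glutamate minus control, log2(RPKM + 1) scale) of every tested gene in 12 lists, with filled points for adjusted p under 0.05 in limma, open points otherwise and a red bar at each list's median. COL relatives and B-box genes lie mostly below 0, other DOF genes mostly above, and control genes on both sides of 0 (-0.49 to 0.63).

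CDF genes, CO and FT are active in phloem companion cells, so markers of that cell type and of tissues were set beside the members. The 6 phloem companion cell markers summed to 207 and 153 RPKM in the glutamate libraries and to 198 and 153 RPKM in the control libraries. In limma 0 of the 6 were lower, also at an unadjusted p under 0.05 and with voom weights, and APL (AT1G79430), a regulator of phloem identity, was higher (log2 change 0.58, adjusted p = 0.0299). The APL call was lost without glutamate replicate 2 or either control library, with equal library totals (adjusted p = 0.0779) and without the filter on low values (0.104). Of 8 shoot photosynthesis markers 2 were lower, LHCB3 (AT5G54270), a light-harvesting protein gene, by 1.16 and PRK (AT1G32060), a Calvin cycle enzyme gene, by 0.81 on the log2 scale. Without the filter on low values 0 of the 8 were lower (adjusted p = 0.113 for LHCB3 and 0.0636 for PRK), while 3 were lower with equal library totals or quantile normalization and 5 with the replicate block. Their sums were 12980 and 11380 RPKM in the glutamate libraries and 15700 and 14860 RPKM in the control libraries. The 8 root markers summed to 26.3 and 24.8 RPKM in the glutamate libraries and to 37.3 and 25.2 RPKM in the control libraries. SHR, SCR and CASP1 were abundant enough to test and none passed in limma, also at an unadjusted p under 0.05, or with voom weights, but 1 root marker was lower without control replicate 2, and also with the replicate block. The part of tissue make-up in the changes of the members was not tested. The 9 control genes had log2 changes of -0.49 to 0.63, a range that includes the change of COL5 (-0.44). None of the 9 control genes passed in limma or with voom weights, and 2 were lower at an unadjusted p under 0.05. Among them, 1 was higher without glutamate replicate 1 or control replicate 2, and 2 were lower with equal library totals or quantile normalization. The replicate block called 1 higher and 2 lower.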

How the data were processed

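RNA was measured in 4 libraries, 2 per group, grouped by sample title. Per the labels' protocols, total RNA was taken up in Trizol and libraries were made with a TruSeq kit from Illumina. The submitters' processing notes name the TAIR10 genome and SAMtools; the aligner, the counter and any use of strand are not given in the sources used. The authors deposited RPKM values, labelled as TMM-normalized. The deposited fraction maxMultiRatio, undefined in the header, was read as the share of reads shared with other loci.

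The lowest level of RPKM times gene length was taken as 0.5 read. Recovered reads were whole within 0.01 for at least 99.9% of genes with a fraction of 0, and served for depth and 1 alternative. Genes averaging 1 RPKM or more were tested as log2(RPKM + 1) in limma 3.58.1 (R 4.3.3; two-sided, intensity-trended prior, Benjamini-Hochberg over 17750 genes). The fit was also run on simulated reads, with independent libraries and a common dispersion for all genes. That run does not cover deviations shared between libraries, so it does not bear on the calls given here. Only 2 residual degrees of freedom come from the libraries, so limma moderates each variance with those of other genes. Libraries of a group differed beyond counting noise (chi-square per degree of freedom 21.5 in the glutamate group and 21.8 in the control group).

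Members and lists were chosen with earlier results of these data known, and motifs after the values were seen. All members, 6 partners or targets, the 3 called genes of largest change in each list, and the 3 genes nearest in pattern to the members with the largest rise and fall are named. SHR, SCR, CASP1, CCA1, LHY, PRR9, PRR7, PRR3, TOC1, COL3, TEM2, SWEET11, SWEET12 and genes overlapping a member were named after their values were seen. Gene models are from TAIR10.1 (RefSeq), which held 32835 of the 33602 identifiers.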

Additional observations from a re-analysis of the deposited data

How the results depend on the processing

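No member changed direction under the 14 alternatives, and 7 of the 9 kept their call wherever they could be tested (115 of 125 values kept both). For groups that do not overlap, another pseudocount or filter, the replicate block or a left-out library could not reverse a direction. COL5 missed the threshold without the filter (log2 change -0.44, adjusted p = 0.0613), when centred on control genes (-0.43, 0.0661) and with the median change set to 0 (-0.38, 0.0678). Leaving out 1 library at a time gave COL5 -0.48 to -0.39 and COL9 -0.74 to -0.50. COL9 also missed without the filter (-0.62, adjusted p = 0.0929). Without the filter 2 COL genes were lower, and leaving out 1 library gave 2 to 3. With a minimum mean of 5 RPKM only CDF1 was called higher among the CDF genes, since CDF4 then had no test.

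Over all genes, 2888 were higher and 2585 lower, with 1335 lower without the filter and 4361 lower with equal library totals. All tested genes had a median log2 change of -0.23 with equal totals and -0.15 with quantile normalization. Over the 10 lists of partners, relatives, markers and controls, 12 genes were higher and 27 lower. Without the filter these were 5 and 17, with equal totals 7 were higher, and leaving out 1 library gave 7 to 12 higher. Same-numbered libraries deviated together (r = 0.60 across genes), but the labels do not tie the numbers to a shared culture. A fit with the replicate block called 4445 genes higher and 5280 lower, kept all 9 members called, and called 11 clock genes lower in place of 6. Where 1 library was left alone in its group, it was assumed to vary like the others. Depth limits CO and FT, at 3 to 16 reads per library.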
